A study of Mus musculus with 42 samples.

Results

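Spp1 is the mouse gene for osteopontin, and the values below follow this 1 gene through all 34 bulk RNA-Seq libraries and the single-cell data of a study of uterine tissue-resident natural killer (trNK) cells. It was taken by its symbol and identifier (ENSMUSG00000029304), and it is 1 of the 54353 genes that all bulk libraries share. The study asked how trNK cells change as the uterine lining is remodelled in early pregnancy, and what interleukin-21 (IL-21) and the transcription factor STAT3 contribute. All mice were wild-type adult females of the C57BL/6 strain, and each of the 17 bulk groups had 2 libraries.

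In the gestation experiment, trNK cells were sorted as CD45+NK1.1+NKp46+CD49a+CXCR6- cells from uteri of virgin mice and of mice at gestational day (gd) 6.5 and 8.5. In the subset experiment, the same gate at gd8.5 was divided by the surface proteins CD55 and 4-1BB into cells low (trNK-V), intermediate (trNK-D) and high (trNK-T) for both. In the inhibitor culture, live NK1.1+ cells were collected after 3 days of culture without IL-21 (control), with 20 ng/mL IL-21, or with IL-21 and the STAT3 inhibitor Stattic (iSTAT3), whose dose is 1 µM in the sample labels and 1 mM in the methods. The labels do not give the cells that started this culture, nor the days of culture of the control. The study's text gives the trNK-V subset of gd6.5 uteri, in medium with IL-15, and 72 h with or without IL-21. The time course started from the same subset by the study's text, cultured with IL-15, without or with 20 ng/mL IL-21, and collected at 0, 6, 24 and 72 h. The sample labels give the IL-15 dose as 10 ng/mL and their treatment protocol gives 15 ng/mL. The single cells were sorted as CD45+NK1.1+NKp46+ cells, without the CD49a step, from virgin and gd8.5 uteri.

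Osteopontin is a secreted, acidic and heavily phosphorylated glycoprotein that acts both as an extracellular matrix protein and as a cytokine. It binds CD44 and several integrins through which cells attach, move and survive, and thrombin and matrix metalloproteinases cut it into fragments that expose further integrin sites. It belongs to the SIBLING family of bone and tooth matrix proteins, whose genes lie side by side. In the pregnant uterus it is known from the epithelium and from immune cells of the decidua, and activated T cells, NK cells and macrophages make it.

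The annotation in the count tables (mouse build mm10) places Spp1 on the plus strand of chromosome 5, from 104435118 to 104441050, with 1648 exonic bases in 8 blocks. One other annotated gene, Gm42793 (104435121 to 104436372, same strand), covers 309 of those exonic bases. It held between 0 and 945 counts per library, against 14300 to 2417767 counts of Spp1, and how many Spp1 reads were lost or moved where the genes overlap was not measured. RefSeq (GRCm38.p6) starts the gene at 104435111, which is 7 bases upstream of the start in the count tables, and distances below are counted from the RefSeq start. Its promoter table gives a window at that start, chr5:104434861-104435160 on the plus strand, from 250 bases before to 50 bases after it. RefSeq also gives a second Spp1 window, chr5:104435942-104436241, which is not printed here. The first window is shown because the transcript differed with IL-21 and with a STAT3 inhibitor in the comparisons that follow. Capitals mark a RUNX motif (ACCACA), ETS motifs (AGGAAG, also as CTTCCT on the other strand), a CCAAT box (as ATTGG on the other strand), a TATA-like run (TTTAAA) and a T-box motif (GTGTGA, as TCACAC on the other strand).

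Spp1 promoter: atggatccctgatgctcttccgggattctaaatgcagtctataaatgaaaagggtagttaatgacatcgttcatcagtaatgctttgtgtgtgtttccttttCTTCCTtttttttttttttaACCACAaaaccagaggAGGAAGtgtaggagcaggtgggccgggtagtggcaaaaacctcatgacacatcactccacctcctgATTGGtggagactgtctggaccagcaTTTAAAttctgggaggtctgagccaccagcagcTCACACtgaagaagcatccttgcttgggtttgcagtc

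Motifs were searched on both strands as plain letters, with N for any base, and none of the marked matches overlapped. The window held 1 RUNX motif, 128 bases before the RefSeq start, and 2 ETS motifs, 148 and 112 bases before it. Among all 32851 promoter windows of the same length, 16.8% held the RUNX motif and 35.4% the ETS motif. The CCAAT box lay 46 bases before the start (37.4% of all windows hold one), the TATA-like run 20 bases before it (13.2%) and the T-box motif 13 bases after it (14.5%). The STAT motif TTCNNNGAA, present in 8.30% of all windows, and the same motif with 1 more base of spacing, in 6.95%, had no match in these letters. The AP-1 motif TGANTCA (7.81%), the E-box CACGTG (7.15%) and the GC box GGGCGG (35.7%) had none either. The second Spp1 window held 1 ETS motif and none of the other motifs searched. Such matches describe letters in these windows and were not tested for binding.

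Library totals ranged from 11861343 to 66462748 counts. Levels are given as RPKM, the read count scaled by exon length and library total, which can be compared between genes, or as the percentage of a library's counts. Spp1 was among the first 10 genes by RPKM in 22 of 34 libraries and among the first 100 in 33, with a lowest rank of 161. Its highest library, with IL-21 in the inhibitor culture, held 31499 RPKM, which was 1 count in 19.3, and its lowest, a virgin library, held 378 RPKM, or 1 count in 1604. These extremes lay 83.2-fold apart. The defining genes of the sorted cells were measured throughout, with Ncr1 (NKp46) and Klrb1c (NK1.1) together between 165 and 1531 RPKM in every library. The virgin libraries stood apart from each other. Virgin replicate 1 held 173 RPKM of Gzmb (granzyme B) and 274 RPKM of the summed T cell markers, and replicate 2 held 8742 and 47.1 RPKM. Results that rest on them are therefore given with and without each.

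**Figure D1:**
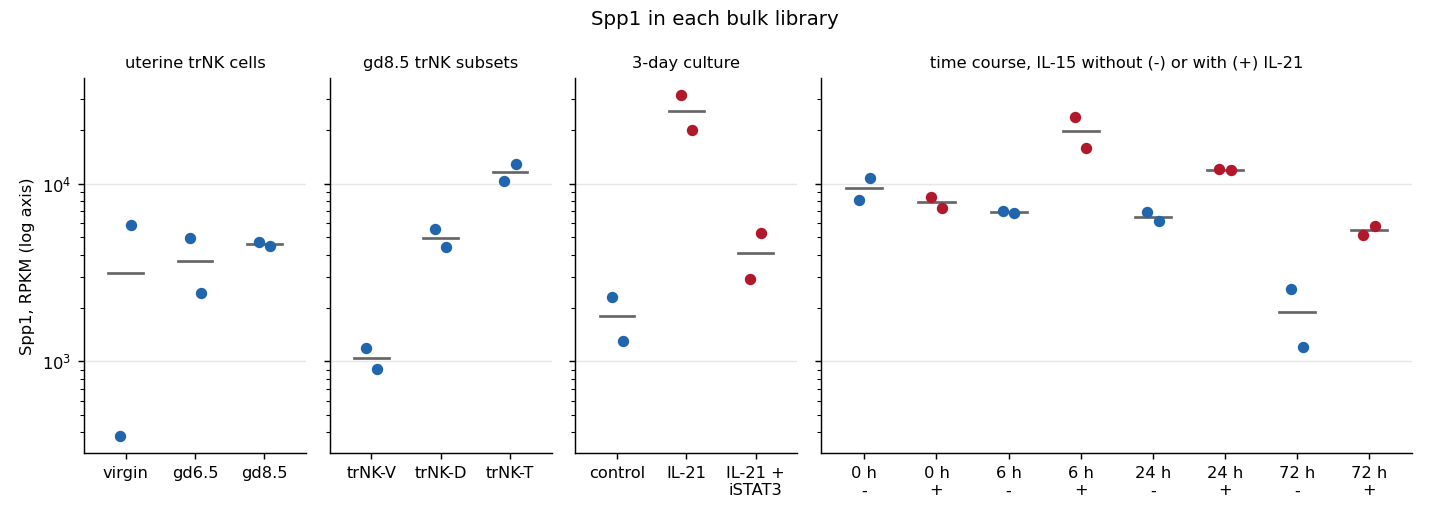
Spp1 in each of the 34 bulk libraries, as RPKM on a log axis, with 1 point per library (blue without and red with IL-21 in culture; cells not cultured are blue) and a grey bar at the mean of the 2 libraries of a group. The libraries with IL-21 at 3 days in the inhibitor culture and at 6 h in the time course are the highest, and virgin replicate 1 is the lowest.

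Ordered by mean RPKM (± SD, n = 2), the 17 groups began with the inhibitor culture with IL-21 (25810 ± 8045), followed by IL-21 at 6 h (19953 ± 5535) and at 24 h (12023 ± 95.4) and by freshly sorted trNK-T (11663 ± 1802). The next groups were the 0 h cultures labelled without (9519 ± 1908) and with IL-21 (7881 ± 824), then 6 h without IL-21 (6948 ± 81.7), 24 h without (6542 ± 524) and 72 h with IL-21 (5506 ± 461). The middle of the order held trNK-D (4976 ± 797), gd8.5 (4588 ± 195), IL-21 with iSTAT3 (4109 ± 1692), gd6.5 (3680 ± 1774) and virgin (3137 ± 3901). At the bottom were 72 h without IL-21 (1893 ± 962), the control culture (1797 ± 705) and trNK-V (1044 ± 199). Of the 16 neighbouring pairs in this order, 4 did not overlap, namely IL-21 at 6 h over IL-21 at 24 h, IL-21 at 0 h over 6 h without it, 24 h without IL-21 over 72 h with it, and the control culture over trNK-V. The other neighbours did not differ beyond the spread of their libraries. The experiments are separate sets of libraries, and the labels of the time course name another cDNA kit than the methods do for freshly sorted cells, so levels between experiments are given side by side only.

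Across gestation, no comparison of days passed the test. The level in virgin cells was not settled, with Spp1 at rank 161 by RPKM in virgin replicate 1 and rank 7 in replicate 2. The virgin libraries held 378 and 5895 RPKM, the gd6.5 libraries 4934 and 2426, and the gd8.5 libraries 4726 and 4450. Both pregnant groups thus lay between the virgin libraries, which differed 15.6-fold from each other. By edgeR's quasi-likelihood test across all genes, the log2 fold change was 0.15 (SE 1.03, 95% interval -2.35 to 2.65, adjusted p = 0.935) at gd6.5 against virgin and 0.48 (SE 1.04, -2.02 to 2.98, adjusted p = 0.847) at gd8.5 against virgin. Between gd8.5 and gd6.5 it was 0.33 (SE 1.03, -2.17 to 2.83, adjusted p = 0.874). These intervals leave room for changes of several-fold in either direction. All groups of the experiment shared a spread in this fit, so the virgin libraries also entered the interval of gd8.5 against gd6.5. In 8 alternative fits, among them a fit of only gd6.5 and gd8.5, that log2 fold change ran from 0.22 to 0.41 and did not pass. Of all 4504 genes tested, edgeR called 6.22% (adjusted p below 0.05 and over 2-fold) at gd6.5 against virgin and 0.377% at gd8.5 against virgin. It called 0 between gd8.5 and gd6.5, where 1062 genes had an unadjusted p below 0.05.

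One virgin library decided the values against virgin cells. Leaving out either one leaves a virgin group of 1 library, which the fit assumes to vary like the other groups. Without virgin replicate 2, Spp1 was higher at gd6.5 by 3.20 on the log2 scale (adjusted p = 0.00415) and at gd8.5 by 3.53 (adjusted p = 0.00683). Without virgin replicate 1, the difference turned negative, to -0.76 (adjusted p = 0.156) and -0.43 (adjusted p = 0.592). Tnfrsf9, which encodes 4-1BB and helped to define the subsets, split the same virgin libraries at 123 and 751 RPKM, and the summed markers of terminal-stage trNK cells split them at 436 and 1785 RPKM. Whether the virgin libraries differ in cell composition was not tested. In sorted bulk samples, fewer cells of a type and less RNA per cell cannot be told apart.

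Among the subsets at gd8.5, Spp1 rose stepwise with CD55 and 4-1BB. The trNK-V libraries held 1186 and 903 RPKM, the trNK-D libraries 5540 and 4413, and the trNK-T libraries 10389 and 12937, so no library overlapped with another subset. As a share of the library, Spp1 made up 0.195% and 0.149% of counts in trNK-V, 0.913% and 0.727% in trNK-D, and 1.71% and 2.13% in trNK-T. Spp1 was 4.80-fold higher in trNK-D than in trNK-V (log2 fold change 2.26, SE 0.20, 95% interval 1.78 to 2.75, edgeR adjusted p = 0.0218). It was 11.2-fold higher in trNK-T than in trNK-V (3.48, SE 0.21, 2.97 to 3.99, adjusted p = 0.00061). Between trNK-T and trNK-D the difference was 2.33-fold (1.22, SE 0.20, 0.75 to 1.69, adjusted p = 0.0471). The 3 comparisons share their libraries and are not independent of each other.

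The background of calls differed widely between these comparisons. In trNK-D against trNK-V, edgeR called 0.256% of the 4683 genes higher, which is 12 genes, and Spp1 ranked 3 by p-value. In trNK-T against trNK-V it called 8.07% higher and 13.1% lower, and Spp1 ranked 9. In trNK-T against trNK-D it called 0.342% higher, with Spp1 at rank 50. Leaving out any 1 library of the trNK-D comparisons ended both calls, with adjusted p from 0.0599 to 0.151 against trNK-V and from 0.0579 to 0.208 for trNK-T against trNK-D. The log2 fold changes then stayed within 2.09 to 2.46 and 1.06 to 1.38, and the call of trNK-T against trNK-V held in all 4 such fits.

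Markers of other cells moved with the subsets too. The summed level of the 9 macrophage markers was 56.9 and 385 RPKM in trNK-V, 277 and 391 in trNK-D, and 20.4 and 17.0 in trNK-T, and that of the 5 dendritic cell markers was 269 and 102, 313 and 82.9, and 2.96 and 2.17. Spp1 was highest where the macrophage and dendritic sums were lowest, but other sums ran differently. The neutrophil or monocyte sum was 70.08 and 62.995 RPKM in trNK-V, 238.5 and 116.5 in trNK-D, and 148.5 and 54.4 in trNK-T. Of the 5 genes in that sum, only Ly6c2 exceeded 10 RPKM in any bulk library, with a highest value of 237 RPKM. The epithelial sum rose with Spp1, at 11.1 and 6.54, 24.6 and 18.9, and 53.3 and 57.98 RPKM, and in trNK-T it was Epcam only. The part of myeloid or epithelial cells in the Spp1 levels of the subsets was not tested. In the gestation libraries the macrophage sum stayed between 12 and 30.2 RPKM and the dendritic sum between 0.347 and 24.6 RPKM.

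In the inhibitor culture, Spp1 was among the 12 genes called higher with IL-21. The control libraries held 2296 and 1298 RPKM, those with IL-21 31499 and 20121, and those with IL-21 and iSTAT3 2912 and 5305. Its share of counts was 0.378% and 0.214% in the control, 5.19% and 3.32% with IL-21, and 0.480% and 0.874% with the inhibitor. Both IL-21 libraries lay above all 4 others, and both iSTAT3 libraries lay above both controls. Spp1 was 16.5-fold higher with IL-21 than in the control (log2 fold change 4.05, SE 0.52, 95% interval 2.85 to 5.24, edgeR adjusted p = 0.0324). It was 5.89-fold lower with iSTAT3 than with IL-21 alone (-2.56, SE 0.48, -3.68 to -1.44, adjusted p = 0.0413). Against the control, the cells with IL-21 and iSTAT3 stood at 1.49 (SE 0.47, 0.41 to 2.57, adjusted p = 0.117), which missed the threshold although its own interval lay above 0. There 2.93% of genes were called higher.

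Of the 4158 genes tested, edgeR called 0.289% higher with IL-21 than in the control and 0% lower, and 382 genes had an unadjusted p below 0.05. Spp1 ranked 7 by p-value. With iSTAT3 against IL-21, 1.15% were called lower and Spp1 ranked 81. Each call was lost in several fits that left out 1 library, with adjusted p up to 0.106 for IL-21 against the control (without either control library) and up to 0.255 for iSTAT3 against IL-21 (without IL-21 replicate 1 or either iSTAT3 library). The log2 values stayed between 3.64 and 4.50 and between -3.07 and -2.12. The summed trNK markers Ncr1, Klrb1c, Eomes and Itga1 also differed between these cultures, at 1099 and 966 RPKM in the control, 313 and 367 with IL-21, and 228 and 234 with iSTAT3. Ncr1 and Klrb1c held 1025 and 868, 280 and 310, and 165 and 198 RPKM of these sums. By the study's text, their proteins also mark other NK cells and type 1 innate lymphoid cells. The part of these sums in the Spp1 values was not tested.

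The time course set the same cytokine against hours of culture. Without IL-21, Spp1 fell late, and its mean with IL-21 was highest at 6 h, although by edgeR neither the step from 0 h to 6 h nor that from 6 h to 24 h passed the test. At 0 h the libraries labelled without IL-21 held 8170 and 10868 RPKM and those labelled with it 8464 and 7299. At 6 h the libraries without IL-21 held 7006 and 6890 RPKM and those with it 23866 and 16039. At 24 h the values were 6912 and 6171 RPKM without and 12090 and 11956 with IL-21. By 72 h they were 2574 and 1213 RPKM without and 5180 and 5832 with IL-21. At 6, 24 and 72 h, but not at 0 h, both libraries with IL-21 lay above both without it.

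Markers of the cells moved in the same libraries. The summed trNK markers were at 1182 and 1217 RPKM in the 0 h libraries labelled without IL-21 and at 1014 and 1173 in those labelled with it. They were at 1315 and 1253 RPKM without and 577 and 617 with IL-21 at 6 h, and at 1503 and 1396 without and 898 and 866 with it at 24 h. At 72 h they were at 1524 and 1581 RPKM without and 1370 and 1058 with IL-21. Ncr1 and Klrb1c made up most of these sums, such as 569 and 606 RPKM at 6 h with IL-21. The sum of 5 markers of dividing cells went from 282 and 306 RPKM at 24 h to 7.13 and 0.533 at 72 h without IL-21, and from 260 and 264 to 63.4 and 29.9 with it. At all 4 times, 0 h included, both trNK sums with IL-21 lay below both without it, and the dividing sums were lower at 72 h than at 24 h in both cultures. Their part in the Spp1 values was not tested.

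**Figure D2:**
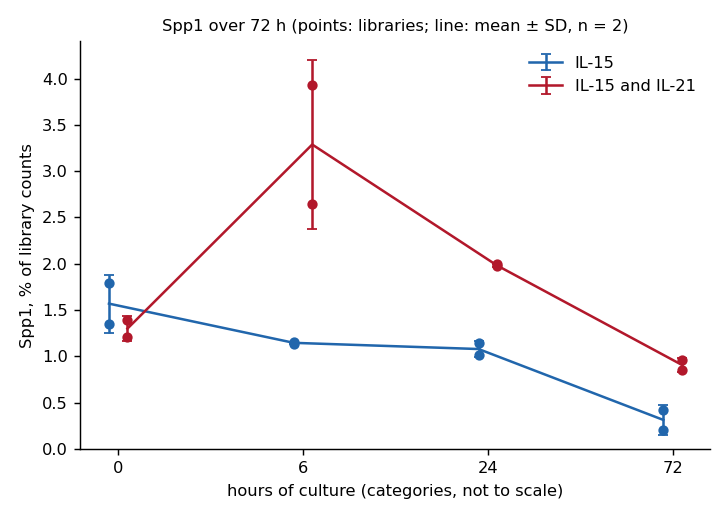
Spp1 as a percentage of library counts at 0, 6, 24 and 72 h (spaced as categories) in trNK cells cultured with IL-15 (blue) or IL-15 and IL-21 (red). Points are libraries, and lines and whiskers give the mean ± SD of 2 libraries, with a peak of 3.29% ± 0.912 at 6 h with IL-21 and the lowest value of 0.312% ± 0.159 at 72 h without it.

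With IL-21 against without, the log2 fold change of Spp1 was -0.19 at 0 h (SE 0.32, 95% interval -0.88 to 0.51, edgeR adjusted p = 1.00), the start of the culture. It was 1.49 at 6 h (SE 0.32, 0.78 to 2.20, adjusted p = 0.0395), or 2.81-fold. At 24 h it was 0.78 (SE 0.32, 0.08 to 1.48, adjusted p = 0.278), which did not pass. At 72 h it was 1.53 (SE 0.32, 0.82 to 2.24, adjusted p = 0.0148), or 2.90-fold. The share of the 3503 tested genes called higher with IL-21 was 0.599% at 6 h, 0.343% at 24 h and 6.57% at 72 h. At 0 h 0 genes were called, with 110 at an unadjusted p below 0.05. The difference at 24 h was not shown to be smaller than the others, since the IL-21 effect at 24 h minus that at 6 h was -0.71 (SE 0.45, adjusted p = 1.00) and that at 72 h minus 24 h was 0.76 (SE 0.45, adjusted p = 0.404). Between 72 h and 6 h the effects differed by 0.04 (SE 0.45, 95% interval -0.94 to 1.03, adjusted p = 0.981). Tests of such differences called 0 genes between 24 h and 6 h (69 had an unadjusted p below 0.05), 4.22% between 72 h and 24 h, and 4.17% between 72 h and 6 h.

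Without IL-21, the values at 6 h against 0 h (-0.52, SE 0.32, edgeR adjusted p = 0.999) and at 24 h against 6 h (0.05, SE 0.32, adjusted p = 0.998) did not pass, in comparisons that called 0 genes (106 had an unadjusted p below 0.05) and 0.0856% of genes. From 24 h to 72 h Spp1 fell 2.79-fold (log2 fold change -1.48, SE 0.32, 95% interval -2.19 to -0.77, adjusted p = 0.0109). From 0 h to 72 h it fell 3.86-fold (-1.95, SE 0.33, -2.67 to -1.23, adjusted p = 0.00147). Late changes were common in these cultures, with 9.82% of genes called lower from 24 h to 72 h and 14% from 0 h to 72 h. The 72 h libraries without IL-21 had counts in 10724 and 11665 genes, the fewest of the time course. The part of this in the Spp1 values was not tested. With IL-21, Spp1 at 72 h stood at -0.23 (SE 0.32, -0.92 to 0.47, adjusted p = 0.675) against 0 h, while 12.5% of genes were called in either direction. From 0 h to 6 h with IL-21 the value was 1.16 (SE 0.32, 0.46 to 1.87, adjusted p = 0.0743), just outside the threshold, in a comparison where 0.685% of genes were called higher. This step passed with DESeq2 (1.18, adjusted p = 0.005), without TMM (1.34, adjusted p = 0.0378) and with no filter on low values (1.27, adjusted p = 2.62e-08). From 6 h to 24 h it was -0.67 (adjusted p = 0.765, 0.0285% of genes called) and from 24 h to 72 h -0.72 (adjusted p = 0.14, 6.02% of genes called lower). The step from 24 h to 72 h passed without TMM (-1.13).

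Any 1 of the 4 libraries left out at 6 h ended the call there, with adjusted p from 0.119 to 0.369 and log2 values from 1.11 to 1.72. At 72 h the call was lost without replicate 2 of the cultures without IL-21 (1.17, adjusted p = 0.0536), the library with 1213 RPKM, and leaving out the same library ended the fall from 24 h to 72 h (-1.11, adjusted p = 0.0534). That fall was also lost without replicate 1 at 24 h (-1.39, adjusted p = 0.064). The IL-21 effect after 72 h in the time course was smaller than that after 3 days in the inhibitor culture by 2.53 on the log2 scale (SE 0.82, 95% interval -4.47 to -0.59 for the difference), but with an adjusted p of 0.525 from edgeR over 4229 genes, of which 0 were called and 306 had an unadjusted p below 0.05. The same contrast passed with DESeq2 (-2.59, adjusted p = 0.00817, with 115 genes called) and in edgeR with no filter on low values (-2.45, adjusted p = 8.45e-05, with 331 called). Both cultures started from the same subset by the study's text, but they were separate sets of libraries, and the experiment and the size of the effect cannot be told apart in this contrast.

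**Figure D3:**
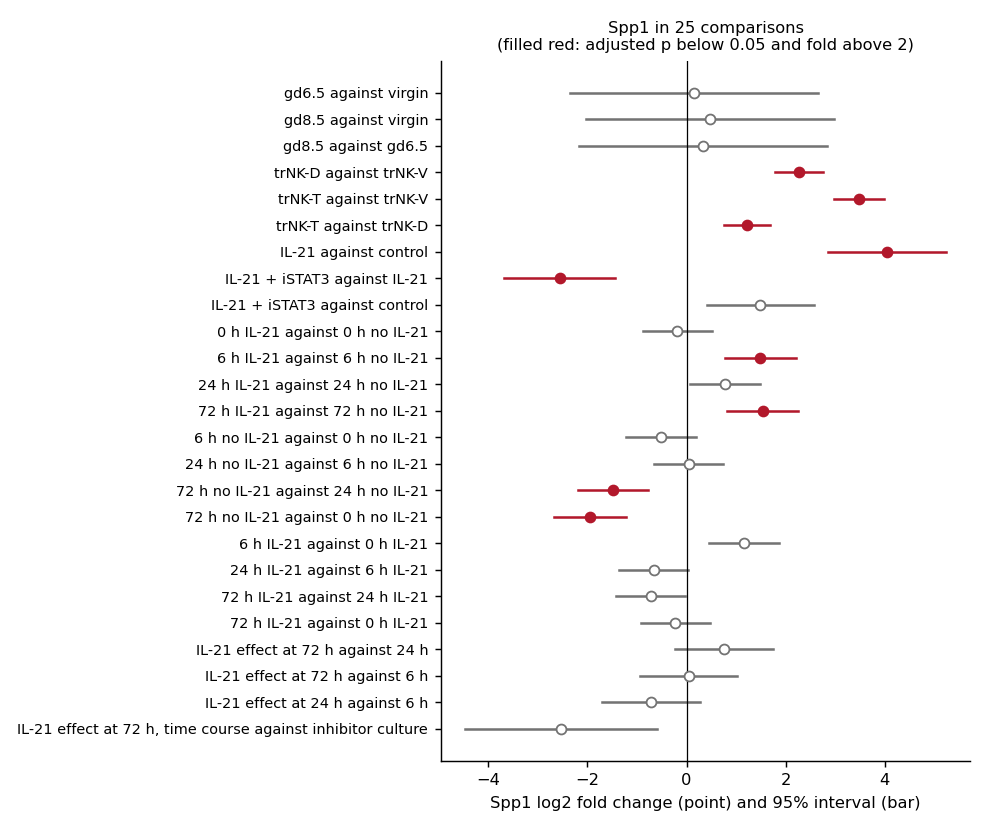
The log2 fold change of Spp1 (point) with its 95% interval (bar) in the 25 comparisons, the last 4 of which are differences between IL-21 effects. Filled red points passed an edgeR adjusted p below 0.05 and a fold above 2, and the 3 gestation comparisons have the widest intervals.

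The other genes of the SIBLING family were all but silent. Ibsp (bone sialoprotein), Dmp1 (dentin matrix protein) and Dspp (dentin sialophosphoprotein), which precede Spp1 on chromosome 5, had 0 counts in all 34 libraries, which allows up to 3 counts per library. Mepe, which lies next to Spp1, had 8 counts in 1 library and 0 in the other 33. The next gene downstream, Pkd2, encodes an ion channel and stayed at or below 3.38 RPKM. High levels in this stretch of the chromosome were those of Spp1.

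Of 10 genes for osteopontin receptors, 5 exceeded 10 RPKM in some library and 4 stayed below 1 RPKM in all. Itgb1, the integrin β1 chain, was the most abundant, at 116 to 210 RPKM in the sorted gestation cells. Cd44, the hyaluronan receptor that also binds osteopontin, held 13.2 and 14.4 RPKM in trNK-V and 8 and 4.57 in trNK-T, and fell by 1.13 on the log2 scale (edgeR adjusted p = 0.0276). The macrophage and dendritic cell sums were lower in these trNK-T than in these trNK-V libraries too. Their part in the Cd44 values was not tested. Itgb3, the β3 chain that pairs with Itgav in the classical osteopontin receptor, held 2.37 and 0.205 RPKM in trNK-V and 14.6 and 11.5 in trNK-T, a rise of 3.34 (adjusted p = 0.0376). Its partner Itgav held 7.92 and 4.90 RPKM in trNK-V and 14.3 and 9.34 in trNK-T, and the filter on low values left it untested. Of the 3 receptor genes tested in trNK-T against trNK-V, 1 was called higher and 1 lower. Their median log2 fold change was -0.51 beside -0.02 over all genes, and 21.2% of all genes were called in either direction. In the cultures 1 receptor call was made, for Itgb1, which was higher at 72 h than at 0 h without IL-21 by 1.07 (11.2% of genes were called higher there).

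Proteases and modifying enzymes known to act on osteopontin were nearly absent from these cells. Of 10 such genes, 7 stayed below 1 RPKM in every library, among them F2 (thrombin), Mmp7 and Mmp12, Tgm2 (transglutaminase) and Fam20c (the kinase that phosphorylates secreted proteins). The 1 gene above 10 RPKM was Acp5, a phosphatase that removes phosphate from osteopontin, at 12.6 and 12.7 RPKM in trNK-V and 2.35 and 4.11 in trNK-T (log2 fold change -1.97, edgeR adjusted p = 0.0253, where 13.1% of all genes were called lower). Myeloid cells express Acp5 too, and the macrophage markers summed to 56.9 and 385 RPKM in these trNK-V and 20.4 and 17.0 in these trNK-T libraries. Their part in the Acp5 values was not tested.

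Of 13 transcription factors known at the Spp1 promoter in other cells, 8 exceeded 10 RPKM somewhere. In trNK-T against trNK-V, where Spp1 was higher, 1 of the 7 tested was called higher and 4 lower, beside 8.07% and 13.1% of all genes. Their median log2 fold change was -1.60 beside -0.02 over all genes. Hif1a, the hypoxia-inducible factor, rose by 1.27 (edgeR adjusted p = 0.00538), from 10.1 and 9.76 RPKM to 22.2 and 25.6. Tbx21 (T-bet) had a log2 fold change of -1.60 (adjusted p = 0.0051), Ets1 of -2.0 (adjusted p = 0.00181), and the AP-1 genes Fos and Jun of -3.44 (adjusted p = 0.0154) and -3.32 (adjusted p = 0.00337). Stat3 held 30.7 and 34.8 RPKM in trNK-V and 32.4 and 25.8 in trNK-T. None of these factors was called in the inhibitor culture, and 0 of the 13 passed the filter in the time course. Stat3 held 1.34 and 1.15 RPKM in its 0 h libraries labelled without IL-21 and 0.474 and 1.97 in those labelled with it. The labels of the time course name another cDNA kit, and its part in these low values was not tested.

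Genes of the IL-21 and STAT3 response were read from a list of 9. Il21r, the receptor itself, held 49.0 and 53.2 RPKM in trNK-V and 13.9 and 6.72 in trNK-T, and its log2 fold change of -2.31 (edgeR adjusted p = 0.00725) was opposite in sign to that of Spp1. Socs1, a feedback inhibitor of cytokine receptors, went the same way as Il21r, with -1.43 (adjusted p = 0.0252), in a comparison where 13.1% of all genes were called lower. With IL-21 against the control, 1 of the 8 tested was called higher, beside 0.289% of all genes, with a median of 1.91 beside -0.02 over all genes. That gene was Bcl3, a nuclear cofactor of NF-κB, at 4.13 and 2.90 RPKM in the control and 24.3 and 36.4 with IL-21 (3.29, adjusted p = 0.0419). Il10, the gene for an anti-inflammatory cytokine, had 0 counts in both controls and 105 and 79 RPKM with IL-21, then 0 and 1.35 RPKM with iSTAT3, and neither difference passed (adjusted p = 0.0823 and 0.068). At 6 h of the time course Il10 held 18 and 22 RPKM with IL-21 and 0 and 0.023 without it, which did not pass either (adjusted p = 0.0554). In the time course 3 genes of the list were tested. With IL-21 against without, 1 was called higher at 72 h (6.57% of all genes were) and 0 at 6 h or 24 h. From 0 h to 6 h with IL-21, 1 was called higher, beside 0.685% of all genes.

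Cytotoxic effectors were called in many of the comparisons in which Spp1 was. Gzmb and Prf1, for granzyme B and the pore-forming perforin, were 2 of the 3 tested genes of a list of 7 NK effectors and growth factors, the other being Gzma (granzyme A). Of the comparisons below, Gzma was called only with IL-21 at 72 h, at 1518 and 4500 RPKM without and 9218 and 12564 with it. In trNK-D against trNK-V and trNK-T against trNK-D, where Spp1 was called, 0 of the 3 were. There 0.256% and 0.342% of all genes were called higher. In trNK-T against trNK-V both rose, Gzmb by 2.70 (edgeR adjusted p = 0.00433) and Prf1 by 1.9 (adjusted p = 0.0036), where 8.07% of all genes were called higher. With IL-21 in the inhibitor culture they rose by 3.70 (adjusted p = 0.0136) and 4.08 (adjusted p = 0.0138), where 0.289% of all genes were. With IL-21 in the time course Gzmb was higher by 1.85 at 6 h (adjusted p = 0.0235), 1.94 at 24 h (adjusted p = 0.021) and 1.94 at 72 h (adjusted p = 0.00721), while Prf1 was called at 6 h (2.36, adjusted p = 0.0204) and 24 h (2.11, adjusted p = 0.0349). The shares of all genes called higher were 0.599%, 0.343% and 6.57% at these times. With iSTAT3, Prf1 fell by 2.01 against IL-21 alone (edgeR adjusted p = 0.0453), while Gzmb stood at -0.98 (adjusted p = 0.155), and 1.15% of all genes were called lower. Both were above the control with iSTAT3, Gzmb by 2.72 (adjusted p = 0.00757) and Prf1 by 2.07 (adjusted p = 0.0307), where 2.93% of all genes were called higher. Per RPKM of Gzmb, Spp1 measured 0.966 and 0.739 RPKM in the control, 1.55 and 0.742 with IL-21 and 0.255 and 0.490 with iSTAT3, so the control lay beside the lower IL-21 library, and the difference between the genes in their response was not tested.

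The genes whose pattern was most like that of Spp1 were sought among 2661 genes expressed in every experiment, by Pearson's r of log2(RPKM + 1) over the 34 libraries after centring each experiment on its mean. AA467197, a small mitochondrial protein gene, came first (r = 0.890), followed by Gzmb (0.887), Idi1 (0.857), an enzyme of sterol synthesis, Tnfrsf9 (0.855) and Gadd45g (0.850), a stress-response gene. The lowest were Qpct (-0.842), an enzyme that modifies protein ends, Clec2i (-0.819), a lectin-like ligand of NK receptors, and the cytokine-receptor kinase Jak1 (-0.816). The libraries share groups and depth, so these values describe the pattern and carry no test. Without the virgin libraries the leading 5 kept r between 0.823 and 0.883. Within the time course, Idi1 (0.935) and Gzmb (0.909) were closer to Spp1 than AA467197 (0.723).

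These genes were chosen for their likeness to Spp1 over these same libraries, so their values are given as a description, with no test. AA467197 held 9.86 and 16.6 RPKM in trNK-V, 68.5 and 91.8 in trNK-D and 169 and 160 in trNK-T. Gadd45g went from 59.3 and 52.3 RPKM in the control to 578 and 780 with IL-21 and 90.7 and 158 with iSTAT3. Idi1 held 26.9 and 28.6 RPKM without and 71.1 and 79.5 with IL-21 at 6 h, and 6.65 and 5.28 without and 15.2 and 12.1 with it at 72 h. Qpct lay the other way, at 108 and 123 RPKM without and 16 and 17.3 with IL-21 at 6 h. Tnfrsf9 had a log2 fold change of 2.91 in trNK-T against trNK-V, and its product was part of the gate.

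The single-cell tables name a virgin and a gd8.5 sample, but both list the same 15175 cells and share no gene, with 6821 genes in one and 28416 in the other. Joined, they form 1 pooled set of cells with 83499186 unique molecular identifiers (UMIs) and no map from cells to uteri, so single cells allowed no comparison of gestational stages and no test. Spp1 had 175067 UMIs, or 0.210% of all, and ranked 66 among the 33586 genes detected. At least 1 Spp1 UMI was found in 61.4% of all cells. The study's methods set limits of over 200 and under 2500 on the UMIs per cell. Here these numbers were read as detected genes, with a mitochondrial share under 10%, and 8907 cells remained with a median of 2576 UMIs. They held 33840 Spp1 UMIs, or 1206 CPM, the count scaled to the total of all UMIs of the cells. With the limits set on UMIs as written, 4338 cells remained at 469 CPM. Intervals below are exact 95% intervals that cover counting error only.

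Clustering without Spp1 and the genes of its lists gave 17 clusters, which were named from fixed markers. Those named trNK-like together held 4009 cells and 63.1% of the Spp1 UMIs, at 1539 CPM (1519 to 1560), and 66.9% of these cells (65.4 to 68.4) had a Spp1 UMI at a median depth of 3155. The level of trNK-like cells depended on the limits, at 927 CPM with limits on UMIs and 2724 CPM with no upper limit, and the counting interval does not cover this. An unnamed cluster of 796 cells, led by Mt2, Scin, Ctsg and Epas1, held a further 10153 of the 33840 Spp1 UMIs at 2350 CPM (2304 to 2396). Of the terminal-stage trNK markers, 3 of 7 lay at least 3-fold over other cells. Scin, Ctsg and Epas1 are on that list from earlier results of these same data, so the match is not independent. Too few NK genes lay above the B cell level for the cluster to be named. In B-like cells, which should lack the gene, 31.7% (26.4 to 37.3) had a Spp1 UMI at a median depth of 1824, with 222 CPM (186 to 262). Thinned to 1000 UMIs per cell, with 337 shallower trNK-like and 14 B-like cells left out, the shares were 48.1% and 16.8%.

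Spp1 UMIs were found in every cell class. The macrophage-like (210 CPM), cNK-like (248), T-like (189), stromal-like (165) and erythrocyte-like (191) cells lay within or below the interval of the B-like cells, and no expression was read from them. The dendritic-like cells (355 CPM, 327 to 385) lay above it, with 23.9% of thinned cells holding a UMI, and 34 UMIs in their highest cell. The highest macrophage-like cell held 42 UMIs and the highest B-like cell 7. Per 100 Gzmb UMIs, Spp1 had 18.9 UMIs (15.7 to 22.8) in B-like, 17.7 in T-like, 16.1 in dendritic-like and 28.7 (26.1 to 31.4) in macrophage-like cells. No doublets were removed, and how far free RNA or doublets set these low levels was not tested.

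**Figure D4:**
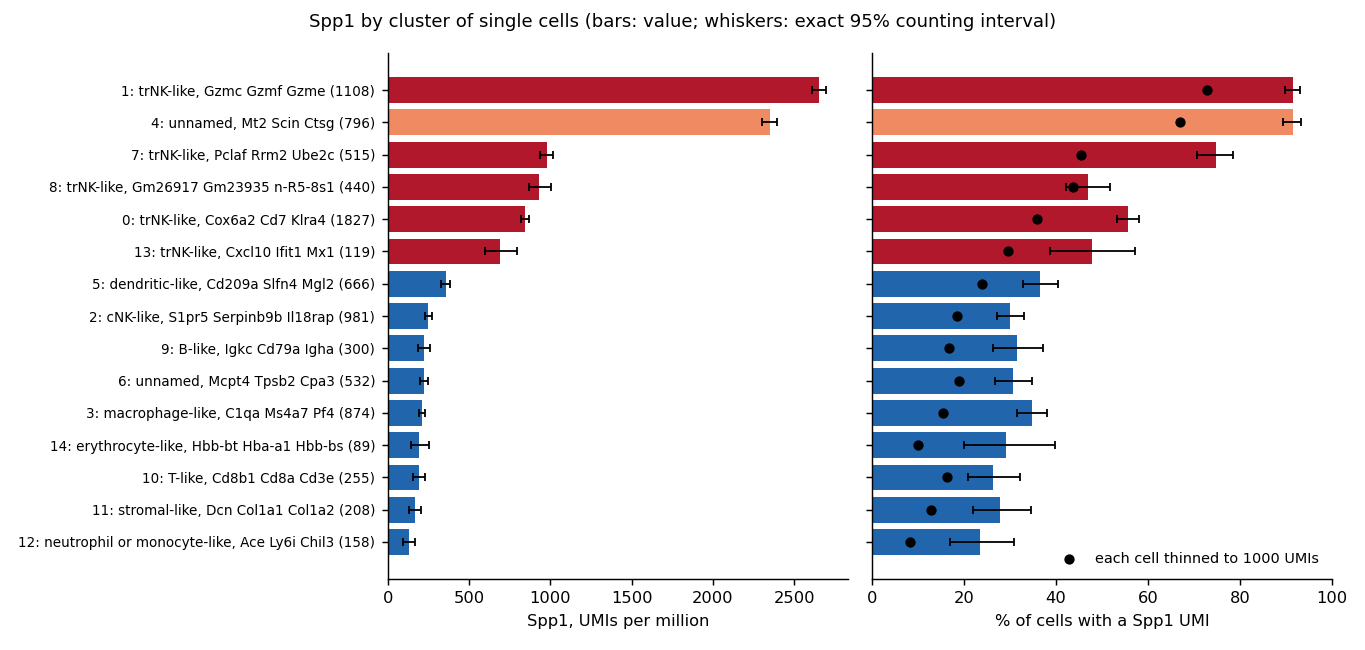
Spp1 in the 15 clusters of at least 50 cells, as CPM (left) and as the share of cells with a Spp1 UMI (right), with cell numbers in brackets. Whiskers are exact 95% counting intervals, black points give the share after thinning to 1000 UMIs per cell, red bars are trNK-like, orange is the unnamed Mt2, Scin and Ctsg cluster, and blue are the others. The first 2 clusters lie at 2652 and 2350 CPM and all blue bars lie at or below 355 CPM.

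Within the trNK-like cells Spp1 varied by cluster. It was highest in the 1108 cells led by the granzymes Gzmc, Gzmf and Gzme, at 2652 CPM (2607 to 2697), with a UMI in 91.6% of cells. Dividing cells, led by Pclaf, Rrm2 and Ube2c, held 977 CPM (938 to 1018). The largest cluster, 1827 cells led by Cox6a2, Cd7 and Klra4 and carrying virginal-stage markers, held 841 CPM (817 to 866), with a UMI in 55.7% of cells. A cluster of 440 cells led by the noncoding RNAs Gm26917, Gm23935 and n-R5-8s1 held 932 CPM (866 to 1002) at a median depth of 1137, and one of interferon-response genes 692 CPM. After thinning, 72.8% of the granzyme cluster, 66.9% of the Mt2 and Scin cluster, 45.6% of the dividing cluster, 43.6% of the noncoding RNA cluster and 35.9% of the Cox6a2 cluster had a UMI. In the noncoding RNA cluster 204 cells were too shallow to thin. The interferon cluster stood at 29.7%, so the shares at equal depth followed the order of CPM. Before thinning, the share in the noncoding RNA cluster (47.0%) lay below those in the interferon (47.9%) and Cox6a2 clusters. The ratio of Spp1 to Gzmb differed between the highest clusters, at 22.8 Spp1 UMIs per 100 Gzmb UMIs (22.4 to 23.2) in the granzyme cluster and 61.9 (60.4 to 63.4) in the Mt2 and Scin cluster.

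The number of Spp1 UMIs per cell varied within clusters. In the granzyme cluster the median cell held 7 Spp1 UMIs and the highest 159, 40.4% of cells held 10 or more, and the 10% of cells with the most Spp1 held 42.5% of the UMIs. Over all trNK-like cells the upper 10% held 57.0%, beside 52.6% in B-like cells, and in 1 cell Spp1 made up 2.97% of its own UMIs. In thinned cells the variance of the Spp1 count was 4.39 times its mean in the granzyme cluster and 2.52 times in the Cox6a2 cluster, against 1.41 in B-like cells. The means were 2.62, 0.702 and 0.206 UMIs in the same order, so the ratios stand at different levels and do not rank the unevenness of the clusters. None of the B-like cells reached 10 UMIs.

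**Figure D5:**
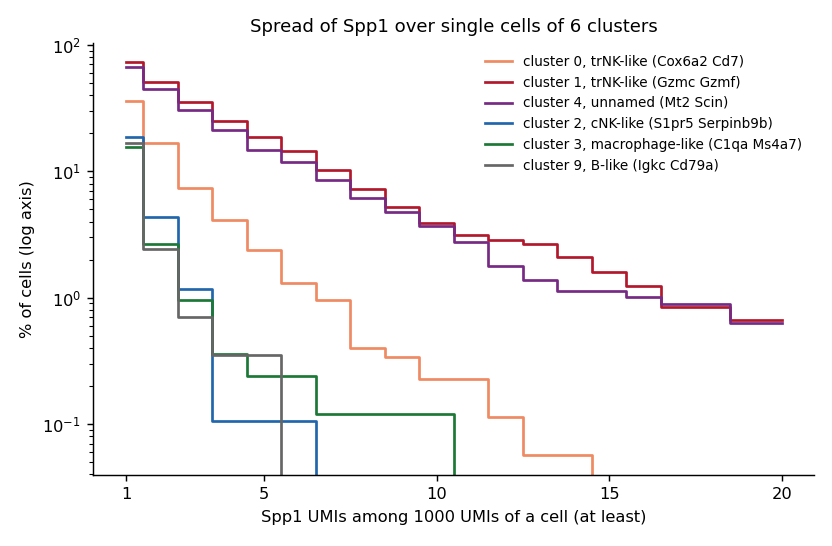
The percentage of cells (log axis) with at least the given number of Spp1 UMIs among 1000 UMIs drawn from each cell, for 6 clusters. The granzyme and the Mt2 and Scin clusters run close together out to 20 UMIs, whereas the B-like, cNK-like and macrophage-like cells end at or before 10 UMIs.

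The receptors for osteopontin were spread over the same cells unevenly. Itgb3 was highest in the granzyme cluster, at 169 CPM (158 to 180), against 52.1 in the Cox6a2 cluster and 27.5 (16 to 44.1) in B-like cells. Cd44 ran the other way, with 84.5 CPM in the Cox6a2 cluster, 44.6 in the granzyme cluster and 10.6 (7.79 to 14.2) in the Mt2 and Scin cluster, beside 194 in dendritic-like and 176 in macrophage-like cells. Itgb1 followed the same order among these 3 clusters, at 982, 683 and 233 CPM. Itga4, the α4 chain, was highest in cNK-like cells at 1010 CPM (965 to 1058). Itgb5 and Itga9 were found mainly in macrophage-like cells, at 161 and 92.9 CPM, against 0.566 and 0.377 CPM in the Cox6a2 cluster.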

How the data were processed

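The authors deposited read counts per gene for each of the 34 bulk libraries, with gene coordinates and lengths on build mm10, and UMI counts per cell and gene for the single cells. The submitters' notes name HISAT2 2.1.0 and featureCounts (the methods text names RSEM), with no further normalization of the counts. RPKM and CPM were computed here from the counts. Chromatin accessibility samples (6) were not analysed here.

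Counts were tested with edgeR 4.0.16 (R 4.3.3, limma 3.58.1), with TMM scaling, the quasi-likelihood test, genes over 10 RPKM in both libraries of any group, 1 fit per experiment, and Benjamini-Hochberg adjustment over all genes tested. A call needed an adjusted p below 0.05 and a fold above 2. The scripts were tested on simulated data. Replicates are separate libraries, but nothing says that they came from separate animals, so p-values measure the spread between libraries, which may be technical. Replicate libraries differed by more than counting noise in every group, and none was merged.

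Single cells were clustered with scanpy 1.11.5 (Leiden 0.10.2, 2000 variable genes, 20 components, resolution 0.8), leaving out Spp1 and its list genes. A class needed 3 markers at 3-fold over other cells. trNK-like also needed 3 of Ncr1, Klrb1c, Eomes and Itga1 at 2-fold over B-like cells, thresholds that were set after the clusters were seen. Named genes are Spp1, its lists, and the 5 most and 3 least alike genes. Spp1 and the lists were chosen with earlier results of these data known, and Scin, Epas1 and Ctsg were taken from such results. Alternatives tried were other scalings, filters, tests (DESeq2 1.42.0, limma voom), fewer samples, a replicate block, leaving out each library, and other cell limits, resolution and variable genes.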

Additional observations from a re-analysis of the deposited data

Results flagged for a closer look

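The cells that the limits left out held most of the Spp1 signal. The 4169 cells with 2500 or more detected genes and a mitochondrial share below 10% carried 139867 Spp1 UMIs, 79.9% of all, at 2613 CPM (exact 95% interval 2599 to 2626, counting error only), against 1206 CPM in the kept cells. A Spp1 UMI was found in 94.7% of them, at a median depth of 11187 UMIs, and the highest held 530. They were flagged as data that the comparisons did not use, and this level lay above that of B-like cells (222 CPM). The 2091 cells with a mitochondrial share of 10% or more held 721 CPM (683 to 760), also above the B-like level, at a median depth of 651 UMIs. With no upper limit on genes, a cluster of 1059 cells led by Ctsg, Gzmg and Gzme held 4716 CPM. Whether doublets take part in these values was not tested.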

How the results depend on the processing

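Of 315 alternative values with a test, 259 kept their direction and side of the threshold, 33 no longer passed it, 9 newly passed and 14 changed sign, and the causes were not tested. The call of trNK-T against trNK-V held in all alternatives run. With edgeR's filterByExpr, calls were lost for trNK-D against trNK-V (2.36, adjusted p = 0.0609), trNK-T against trNK-D (1.31), IL-21 against control (4.09), iSTAT3 against IL-21 (-2.55) and IL-21 at 6 h (1.52), and the effect at 72 h against 6 h became -0.016. Without TMM, trNK-T against trNK-D was lost (1.23), 24 h against 6 h without IL-21 became -0.087, and with IL-21 both 6 h against 0 h (1.34) and 72 h against 24 h (-1.13) passed. With only the compared groups, trNK-T against trNK-D (1.20), IL-21 against control (4.07), IL-21 at 72 h (1.57) and 72 h against 24 h without IL-21 (-1.54) were lost. With DESeq2, iSTAT3 against control (1.5), 6 h against 0 h with IL-21 (1.18) and the contrast between the experiments (-2.59) passed. With no filter, 24 h against 6 h without IL-21 became -0.023, and 6 h against 0 h with IL-21 (1.27) and the contrast between experiments (-2.45) passed. DESeq2 called 115 genes in that contrast and edgeR with no filter 331, against 0.

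Correlations of the deviations of libraries with the same replicate number ran from -0.381 (IL-21 with iSTAT3) to 0.502 (control with IL-21). For trNK-D with trNK-T the value was 0.360. With 2 libraries a group, these cannot decide whether such libraries are paired. As a replicate block, the replicate numbers ended the calls of IL-21 against control (4.05, adjusted p = 0.142), iSTAT3 against IL-21 (-2.49, adjusted p = 0.141) and IL-21 at 6 h (1.48, adjusted p = 0.0615), and changed no other call.

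Leaving out 1 library gave log2 ranges of -0.76 to 3.20 for gd6.5 and -0.43 to 3.53 for gd8.5 against virgin, and -0.092 to 0.93 for gd8.5 against gd6.5. The subsets gave 2.09 to 2.46, 3.31 to 3.68 and 1.06 to 1.38 in the order of the text, and the inhibitor culture 3.64 to 4.50, -3.07 to -2.12 and 0.98 to 1.94. The IL-21 effect ran from -0.40 to 0.043 at 0 h, 1.11 to 1.72 at 6 h, 0.71 to 0.86 at 24 h and 1.17 to 2.02 at 72 h. Without IL-21 the ranges were -0.71 to -0.29 for 6 h against 0 h, -0.040 to 0.11 for 24 h against 6 h, -1.97 to -1.11 for 72 h against 24 h and -2.44 to -1.57 for 72 h against 0 h. With IL-21 they were 0.77 to 1.38, -0.90 to -0.29, -1.10 to -0.45 and -0.57 to 0.043. Differences of effects ran from 0.38 to 1.24 (72 h against 24 h), -0.33 to 0.53 (72 h against 6 h), -0.93 to -0.32 (24 h against 6 h) and -3.03 to -2.0 (between experiments).

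In trNK-like cells Spp1 was 1303 CPM after thinning, 927 with the limits read as UMIs, 2724 with no upper limit, 1709 at resolution 0.4 and 1504 with 3000 variable genes. The share of cells with a UMI was 48.1%, 46.9%, 79.1%, 70.1% and 61.9% in that order. The share of all Spp1 UMIs was 63.9% after thinning, 74.98% with no upper limit, 93.3% at resolution 0.4, where the Mt2 and Scin cells were named trNK-like, and 61.0% with 3000 variable genes. No macrophage-like value was had with limits on UMIs, no upper limit or resolution 0.4. Each bulk group had 2 libraries, and how far their spread or their depth limited the tests was not tested.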

Other observations

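Among the growth factors looked up here, namely Spp1, Vegfa, Pgf, Ptn and Ogn, only Spp1 was at a high level in these libraries. Other growth factors of uterine NK cells were not looked up. Vegfa stayed at or below 7.91 RPKM, Pgf was at 0 counts in all libraries but 1, and Ptn and Ogn, for pleiotrophin and osteoglycin, did not exceed 1.60 and 5.13 RPKM. In single cells Vegfa was higher in the Cox6a2 cluster (64.0 CPM) than in the granzyme cluster (21.3) and the Mt2 and Scin cluster (9.49), whereas Spp1 was lowest of the 3 in the Cox6a2 cluster.

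Il21r held 97.3 CPM (exact 95% interval 89.1 to 106) in the Cox6a2 cluster, 26.4 (22.1 to 31.2) in the granzyme cluster and 2.78 (1.44 to 4.85) in the Mt2 and Scin cluster. Tbx21 held 150 CPM, 61.2 and 12.5, and was highest in cNK-like cells at 374. Hif1a held 80.6, 133 and 133 CPM and Stat3 255, 216 and 218 CPM. These 4 genes were picked from their lists after the values were seen. These are values of 1 pooled set of cells with no test.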
